A study of Mus musculus with 8 samples.

Results

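The enzymes that break glucose down to pyruvate in the cytosol and then oxidise it in mitochondria were followed in mouse pancreatic islets, the small endocrine organs scattered through the pancreas. The members were chosen by name: 39 genes of the 24469 in the count table, of which 15 act in glycolysis and 24 in the pyruvate dehydrogenase complex and the tricarboxylic acid cycle. Of the cycle members, 3 (Aco1, Idh1 and Mdh1) encode cytosolic enzymes that run the same reactions outside mitochondria. All 39 members passed the filter on low counts and were tested among 13617 genes. The tested mice lacked the small nucleolar RNAs U32a, U33, U34 and U35a, whose host is Rpl13a, a ribosomal protein gene that carries them within its introns, on a C57BL/6 background. The comparison mice were C57BL/6 wild type. Islets had been picked by hand from animals of 8 weeks, 4 knockout and 4 wild type, with 1 RNA-sequencing library for each mouse. Whether littermates were used is not given in the sources used here.

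In the beta cell, glycolysis and the mitochondrial cycle do more than supply energy. Their flux sets the ratio of ATP to ADP that closes the ATP-sensitive potassium channel and starts insulin release, so the enzymes form the beta cell's glucose sensor. Glycolysis splits a hexose into a pair of trioses and ends at pyruvate. Pyruvate dehydrogenase turns pyruvate into acetyl-CoA, which citrate synthase feeds into the cycle. Mature beta cells are known to keep lactate dehydrogenase A and the high-affinity hexokinases low, so that pyruvate goes to mitochondria.

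The libraries held 21235196 to 41148318 assigned counts, and the 39 members together had 12882 to 32358 of them in a library. Between 36.7 and 41.3% of counts fell on Rn45s, the precursor of ribosomal RNA. The 6 islet hormone genes took 9.02 to 16.7% in knockout and 10.2 to 24.3% in wild-type libraries, so the defining genes of islets were present in all 8. Xist was high in 3 libraries (knockout replicates 1 and 4 and wild-type replicate 4), so both sexes may be present in both genotypes; the labels used here do not give the sex. The 36 acinar markers in the table, genes of the enzyme-secreting cells around the islets, took 22.4, 5.47, 28.6 and 18.1% in knockout replicates 1 to 4, against 26.8, 2.08, 14.6 and 5.06% in wild-type replicates 1 to 4. Wild-type replicate 1 was thus the wild-type library richest in acinar RNA. The 12 liver markers took 0.734% in knockout replicate 2 and at most 0.00189% in any other library. Where leaving out either of these libraries ends or makes a call, or moves a value of 0.1 or more by over 1.5 times, the value without it is given below.

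Glycolysis genes were mostly lower in knockout than in wild-type islets, by modest amounts, and the pyruvate dehydrogenase and cycle genes lay on both sides of 0. Of the 15 glycolysis members 12 had a negative log2 fold change (knockout over wild type), with a median of -0.26. Of the 24 cycle members 8 were negative, with a median of 0.073. Over all genes tested 48.7% were negative and the median was 0.0098. No member of either set passed a false discovery rate (FDR) of 0.05 in edgeR's quasi-likelihood test with Benjamini-Hochberg adjustment over all genes, where 2 genes of 13617 (0.0147%) passed. At an unadjusted p under 0.05, 5 glycolysis members were lower and 0 higher, against 10.3% of all genes lower. At that limit 4 cycle members were higher, against 8.42% of all genes, and 1 was lower. In bulk tissue, fewer cells of a type and less RNA per cell cannot be told apart.

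**Figure D1:**
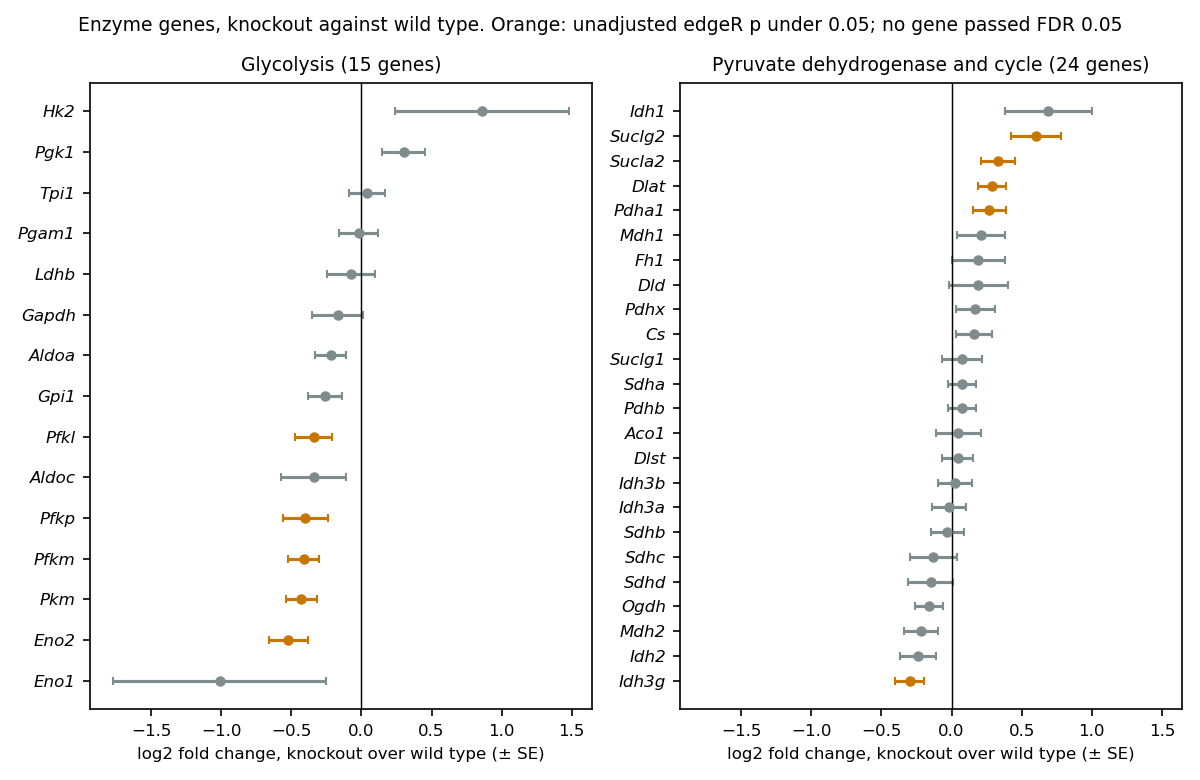
Log2 fold change of each enzyme gene, knockout over wild type (x axis, points with SE from edgeR), for 15 glycolysis genes on the left and 24 pyruvate dehydrogenase and cycle genes on the right. Orange marks unadjusted p under 0.05; 12 of 15 points on the left lie below 0, against 8 of 24 on the right.

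By counts per length the leading glycolysis transcripts were those of Pkm, Pgam1 and Aldoa, and the leading cycle transcript was that of Idh3g. Counts were fractional for Aldoa in 8 libraries, for Pkm and Ogdh in 5 each and for Idh3g in 4. How reads shared between genes were counted is not given in the sources used here, and the ranking may depend on it. Levels of different genes are compared per length, as CPM (counts divided by the library's scaled size, so that libraries have equal depth) divided by kilobases of exon. In glycolysis Pkm, which encodes the pyruvate kinase of most tissues, stood at 26.0 ± 2.02 CPM per kb in knockout and 35 ± 4.96 CPM per kb in wild type (mean ± SD, n = 4 each). Pgam1, the phosphoglycerate mutase gene, was at 30.5 ± 6.05 and 31.0 ± 3.39 CPM per kb in knockout and wild type, and Aldoa, the main aldolase gene, at 24.9 ± 1.99 and 29.0 ± 3.77 CPM per kb. These 3 leading genes lay within their spread of each other, so their order is not settled. In wild type Gpi1 came next, at 11.5 ± 1.40 CPM per kb in knockout and 13.9 ± 1.89 CPM per kb in wild type. Hk2, the insulin-responsive hexokinase of muscle and fat, stood last at 0.153 ± 0.157 CPM per kb in knockout and 0.0789 ± 0.0360 CPM per kb in wild type. In the cycle set Idh3g led at 29.6 ± 2.91 and 36.3 ± 2.44 CPM per kb in knockout and wild type, followed by Mdh2 at 24.4 ± 3.5 and 28.5 ± 3.5 CPM per kb and Ogdh at 17.6 ± 1.74 and 19.6 ± 1.36 CPM per kb. Pdhx, the protein that binds the E3 enzyme in pyruvate dehydrogenase, was last of that set, at 0.864 ± 0.0582 CPM per kb in knockout and 0.769 ± 0.0372 CPM per kb in wild type.

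**Figure D2:**
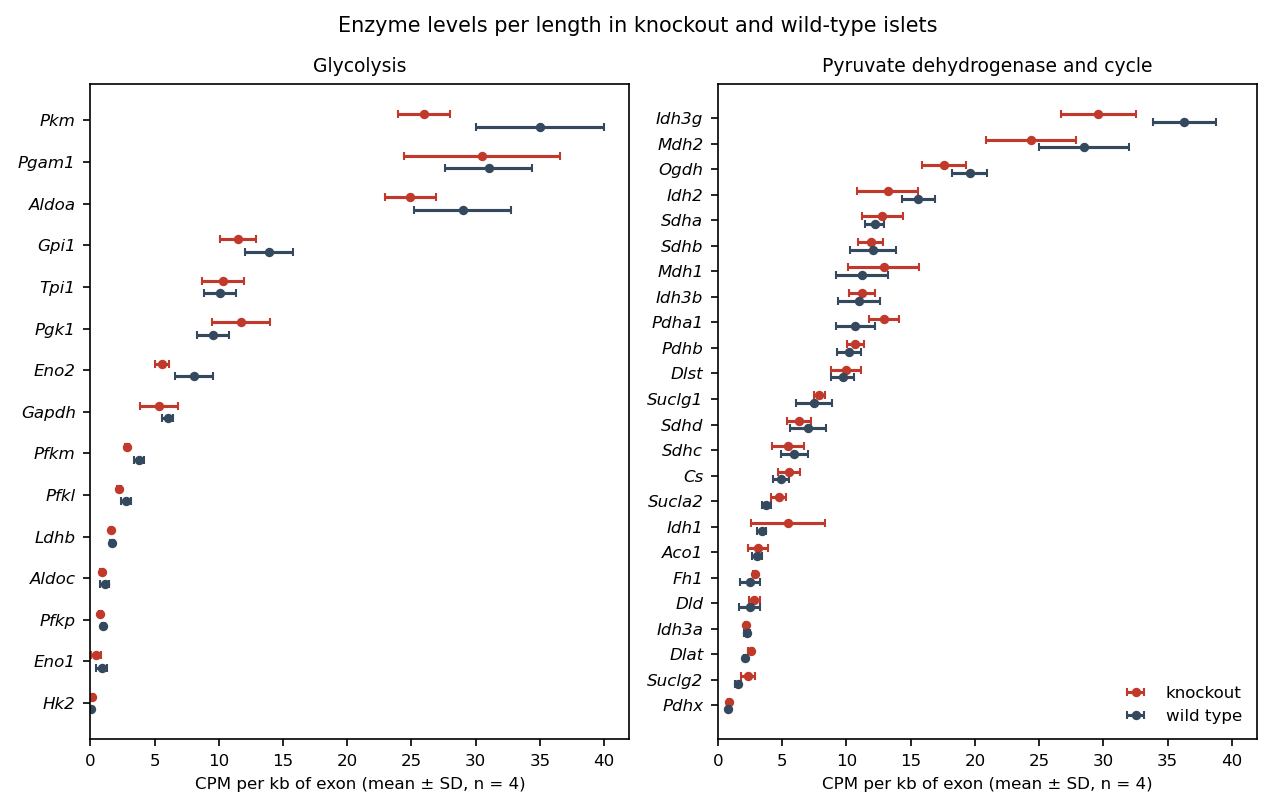
Level of each member as CPM per kb of exon (x axis; mean ± SD, n = 4) in knockout (red) and wild type (dark blue), ordered by the wild-type mean. Pkm, Pgam1 and Aldoa stand well above the other glycolysis genes, and Idh3g and Mdh2 lead the cycle set.

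At the entry of the pathway Hk2 had 2.18, 0.326, 0.486 and 0.450 CPM in knockout replicates 1 to 4, against 0.717, 0.241, 0.449 and 0.364 CPM in wild-type replicates 1 to 4. Knockout replicate 1 stood alone; the log2 fold change was 0.86 ± 0.62 (SE) with all libraries and -0.085 without that library. Gpi1, glucose-6-phosphate isomerase, had 32.3, 34.6, 37.9 and 28.4 CPM in knockout, against 33.1, 43.7, 38.2 and 44.8 CPM in wild type. Only wild-type replicate 1 lay inside the knockout range, and the log2 fold change was -0.26 ± 0.12 (edgeR adjusted p = 0.276).

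Phosphofructokinase, the committed step of glycolysis, is a tetramer of muscle, liver and platelet subunits, and all 3 subunit genes were lower in knockout. Pfkm (muscle) had 9.35, 8.25, 8.08 and 8.61 CPM in knockout replicates 1 to 4, against 10.2, 13.0, 11 and 11.5 CPM in wild-type replicates 1 to 4. The genotypes did not overlap, and the log2 fold change was -0.41 ± 0.11 (edgeR adjusted p = 0.144). Pfkl (liver) had 8.71, 8.64, 7.47 and 8.19 CPM in knockout, against 8.51, 10.5, 10.4 and 12.2 CPM in wild type. The wild-type libraries other than replicate 1 lay above every knockout library, with a log2 fold change of -0.34 ± 0.13 (edgeR adjusted p = 0.208). Pfkp (platelet) had 3.82, 2.71, 3.05 and 3.69 CPM in knockout, against 4.04, 4.31, 4.04 and 5.01 CPM in wild type, again without overlap (-0.40 ± 0.16, edgeR adjusted p = 0.227). Its counts were fractional in all 8 libraries. Its exons share 748 bases with Pitrm1, a gene that averaged 24.3 CPM in knockout and 24.6 CPM in wild type, so its level may depend on how shared reads were counted. The make-up of the 3 subunits differed by no more than its spread: per length, Pfkm made up 48.9 ± 0.726% of the 3 in knockout and 50 ± 2.87% in wild type, Pfkl 37.9 ± 1.85% and 36.6 ± 2.47%, and Pfkp 13.2 ± 1.53% and 13.3 ± 0.983%.

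The aldolase genes split the hexose. Aldoa had 59.3, 61.1, 70.9 and 63.7 CPM in knockout replicates 1 to 4, against 63.7, 76.3, 70.8 and 86.6 CPM in wild-type replicates 1 to 4. The ranges overlapped, and the log2 fold change was -0.22 ± 0.11. Aldoc, the brain form, had 2.94, 2.74, 2.69 and 2.12 CPM in knockout, against 2.09, 3.10, 3.42 and 4.65 CPM in wild type (-0.34 ± 0.23, and -0.53 without wild-type replicate 1). Aldoa made up 96.6 ± 0.579% of the 2 aldolases per length in knockout and 96.4 ± 0.732% in wild type.

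The middle steps lay on both sides of 0, and no gene there had an unadjusted p under 0.05. Tpi1, triose phosphate isomerase, averaged 18.2 ± 2.90 CPM in knockout and 17.8 ± 2.21 CPM in wild type (log2 fold change 0.038 ± 0.13). Gapdh, which makes NADH and 1,3-bisphosphoglycerate, averaged 8.02 ± 2.21 CPM in knockout and 9.01 ± 0.670 CPM in wild type (-0.17 ± 0.18). Leaving out knockout replicate 2 gave -0.34 for Gapdh, and leaving out knockout replicate 4 gave -0.056. Pgk1, phosphoglycerate kinase, had 16.6, 26.6, 20.7 and 21.6 CPM in knockout, against 19.7, 14.5, 18.7 and 16.7 CPM in wild type. Its log2 fold change of 0.30 ± 0.15 was 0.18 without knockout replicate 2, the library with liver RNA. Pgam1 had 41, 64.7, 50.2 and 61.0 CPM in knockout, against 49.0, 53.7, 53.7 and 63.3 CPM in wild type, a log2 fold change of -0.019 ± 0.14.

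Enolase and pyruvate kinase close the pathway. Eno2, the enolase of neurons and endocrine cells, had 14.8, 16.7, 13.9 and 17.2 CPM in knockout replicates 1 to 4, against 16.7, 23.6, 23.4 and 26.4 CPM in wild-type replicates 1 to 4. Wild-type replicate 1 lay within the knockout range and the other wild-type libraries lay above it. The log2 fold change was -0.52 ± 0.14 (edgeR adjusted p = 0.144). Pkm had 72.2, 71.8, 62.8 and 63.1 CPM in knockout, against 76.5, 84.2, 97.8 and 105 CPM in wild type. The genotypes did not overlap, and the log2 fold change was -0.43 ± 0.11 (edgeR adjusted p = 0.144). In all, 3 glycolysis members (Pfkm, Pfkp and Pkm) had every knockout library below every wild-type library, where 4.66% of all genes did.

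Eno1, the enolase of most tissues, could not be read from its own row. It had 0.118, 0.293, 1.94 and 2.02 CPM in knockout, against 2.54, 1.11, 1.69 and 3.70 CPM in wild type, while its close copy Eno1b had 18.1, 22.5, 12.9 and 15.6 CPM in knockout, against 14, 17.4, 17.3 and 18.3 CPM in wild type. The sum of both rows averaged 18.4 ± 3.29 CPM in knockout and 19.0 ± 2.25 CPM in wild type, a difference of -0.661 CPM (two-sided exact permutation p = 0.743 over 70 splits, whose smallest p is 0.0286). The Eno1 row alone gave a log2 fold change of -1.01 ± 0.76, and of -0.67 when knockout replicate 2 was left out. Its counts were fractional in all 8 libraries, and its split from Eno1b is uncertain. Ldhb, the lactate dehydrogenase form of heart, averaged 2.09 ± 0.0951 CPM in knockout and 2.20 ± 0.236 CPM in wild type (-0.072 ± 0.17).

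**Figure D3:**
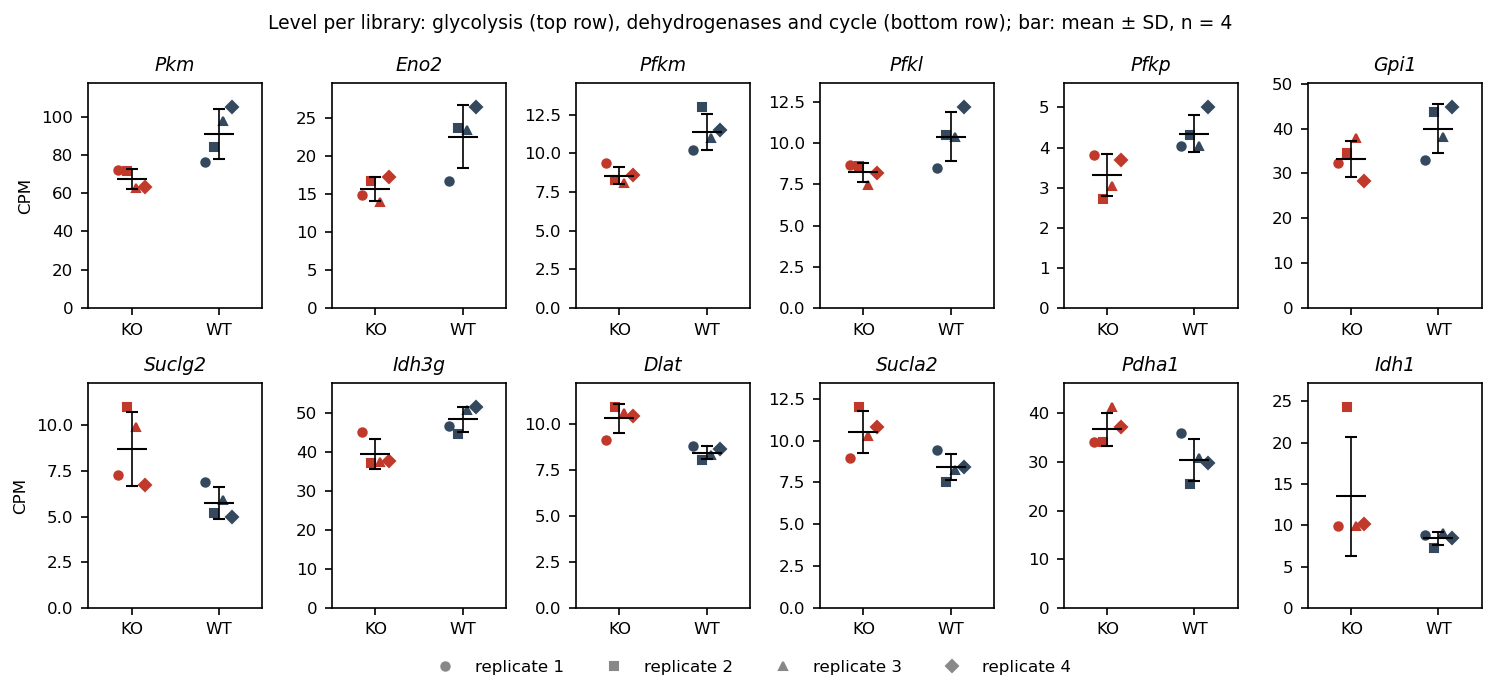
CPM (y axis, from 0) of 6 glycolysis genes and 6 genes of the dehydrogenases and the cycle in each library, knockout in red left of wild type in dark blue, with mean ± SD (n = 4) and a symbol for each replicate number. Pkm, Pfkm and Pfkp do not overlap between genotypes, and the circle of wild-type replicate 1 is the lowest wild-type point for Pkm, Eno2, Pfkm, Pfkl and Gpi1.

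Promoter letters are shown for Pkm and Eno2, which had the smallest p-values in glycolysis, for Pgk1, whose value went the other way, and for Sucla2 of the cycle. Suclg2, Idh3g and Dlat had smaller p-values than Sucla2 in the cycle set. Each is the 250 bases before the RefSeq start in GRCm38.p6, read 5′ to 3′ on the gene's strand. The submitters' processing notes name another build, mm9, so these coordinates are not tied to the count table. Capitals mark 3 motifs on either strand: ACGTG, the core of the hypoxia response element, the NRF1 motif of nuclear respiratory factor 1, and CCGCCC, the GC box bound by Sp1. The windows lie at chr9:59656326-59656575 (plus strand) for Pkm, chr6:124769674-124769923 (minus strand) for Eno2, chrX:106186850-106187099 (plus strand) for Pgk1 and chr14:73552536-73552785 (plus strand) for Sucla2.
Pkm: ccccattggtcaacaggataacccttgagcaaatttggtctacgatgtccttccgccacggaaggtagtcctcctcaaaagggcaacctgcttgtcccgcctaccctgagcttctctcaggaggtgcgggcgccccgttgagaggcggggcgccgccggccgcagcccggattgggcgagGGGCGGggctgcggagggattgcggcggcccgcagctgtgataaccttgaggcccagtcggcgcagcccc
Eno2: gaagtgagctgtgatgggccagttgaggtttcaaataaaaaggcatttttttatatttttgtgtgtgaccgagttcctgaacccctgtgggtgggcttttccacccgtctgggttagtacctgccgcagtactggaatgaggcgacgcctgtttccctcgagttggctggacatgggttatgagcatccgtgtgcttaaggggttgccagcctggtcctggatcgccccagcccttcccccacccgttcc
Pgk1: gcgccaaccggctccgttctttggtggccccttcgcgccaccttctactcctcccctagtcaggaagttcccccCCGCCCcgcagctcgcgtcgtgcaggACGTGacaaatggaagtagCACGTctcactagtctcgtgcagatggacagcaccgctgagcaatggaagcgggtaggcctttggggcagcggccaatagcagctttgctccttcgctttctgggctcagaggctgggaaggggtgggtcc
Sucla2: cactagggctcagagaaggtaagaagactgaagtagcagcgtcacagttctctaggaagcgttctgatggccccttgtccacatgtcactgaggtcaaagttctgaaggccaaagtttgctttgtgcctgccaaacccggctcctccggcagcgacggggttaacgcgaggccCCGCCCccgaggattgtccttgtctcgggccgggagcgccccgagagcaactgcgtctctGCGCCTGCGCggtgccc
Pgk1 held ACGTG at 2 places, Sucla2 held 1 match to the NRF1 motif, and the Eno2 window held none of the 3 motifs. Among windows not shown, those of Hk2 and of Pfkm, which was lower in knockout without overlap, also held ACGTG at 2 places. Of the 37 members with a window, ACGTG stood in 4 of 15 glycolysis promoters (26.7%) and 5 of 22 cycle promoters (22.7%), against 16.6% of 27025 promoters of that length. The NRF1 motif stood in 1 of 15 glycolysis and 3 of 22 cycle promoters, against 3.86% of all. CCGCCC stood in 7 of 15 (46.7%) and 14 of 22 (63.6%), against 32.9% of all. For a gene with several starts the one listed first was used, and a match is a match of letters only.

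Pyruvate dehydrogenase links both sets, and its 5 subunit genes all had positive log2 fold changes, none past FDR 0.05. Dlat, the E2 acetyltransferase core, had 9.12, 10.9, 10.6 and 10.4 CPM in knockout replicates 1 to 4, against 8.80, 8.01, 8.29 and 8.60 CPM in wild-type replicates 1 to 4. The lowest knockout library exceeded the highest wild-type library, with a log2 fold change of 0.29 ± 0.10 (edgeR adjusted p = 0.197). Pdha1, the X-linked E1 alpha subunit, had 34.2, 34.2, 41.3 and 37.2 CPM in knockout, against 36.0, 25.5, 30.8 and 29.9 CPM in wild type. Only wild-type replicate 1 lay inside the knockout range (0.27 ± 0.12, edgeR adjusted p = 0.248). Exons of Pdha1 share 603 bases with Map3k15 in GENCODE M21, and its counts were fractional in all 8 libraries; how the authors' counting shared such reads is not given in the sources used here. Pfkp shares 748 exon bases with Pitrm1 in the same way. The log2 fold change of Pdha1 was 0.17 in the fit with an acinar covariate. Pdhb (E1 beta) had a log2 fold change of 0.072 ± 0.10, Dld (the shared E3 dehydrogenase) 0.19 ± 0.21 and Pdhx 0.17 ± 0.14. Without wild-type replicate 1 the value of Dld was 0.43 ± 0.15 (edgeR adjusted p = 0.0918).

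At the entry of the cycle Cs, citrate synthase, averaged 16.1 ± 2.49 CPM in knockout and 14.4 ± 1.77 CPM in wild type (0.16 ± 0.13). Aco1, the cytosolic aconitase that doubles as iron regulatory protein, differed by 0.049 ± 0.16 on the log2 scale; leaving out knockout replicate 2 gave -0.14.

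Of the 5 isocitrate dehydrogenase genes, Idh3g and Idh2 had the most negative values and Idh1 the most positive. Idh3g, the regulatory gamma subunit of the NAD-dependent mitochondrial enzyme, had 45.2, 37.2, 37.5 and 37.8 CPM in knockout replicates 1 to 4, against 46.6, 44.7, 50.7 and 51.5 CPM in wild-type replicates 1 to 4. Knockout replicate 1 lay among the wild-type values and the other 3 below them (-0.30 ± 0.10, edgeR adjusted p = 0.175). Its partners lay near 0: Idh3a (catalytic alpha) had 5.71, 5.74, 5.48 and 5.91 CPM in knockout, against 6.52, 5.21, 5.46 and 5.97 CPM in wild type (-0.020 ± 0.12), and Idh3b had 15.9, 19.3, 17.5 and 19.4 CPM in knockout, against 17.3, 14.6, 18 and 21.1 CPM in wild type (0.023 ± 0.12). Per length Idh3g made up 68.8 ± 3.47% of the 3 in knockout and 73.4 ± 1.65% in wild type, with overlapping ranges.

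Idh2, the mitochondrial NADP-dependent enzyme, had 26.9, 19.1, 26.4 and 19.9 CPM in knockout, against 24.4, 26.6, 29.0 and 29.1 CPM in wild type (-0.24 ± 0.13). Idh1, its cytosolic counterpart, had 9.88, 24.3, 9.90 and 10.1 CPM in knockout, against 8.87, 7.23, 9.05 and 8.43 CPM in wild type. The genotypes did not overlap, but knockout replicate 2 stood far above the others: the log2 fold change was 0.69 ± 0.31 with it and 0.24 ± 0.12 without it (edgeR adjusted p = 0.272 and 0.350). Liver is known to express Idh1, and the part of liver RNA in that library's value was not tested. Dlat and Idh1 were the 2 cycle members with every knockout library above every wild-type library, where 3.68% of all genes were.

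The oxoglutarate dehydrogenase and succinyl-CoA steps follow. Ogdh, the E1 enzyme of oxoglutarate dehydrogenase, had 79.8, 86.8, 77.8 and 68.1 CPM in knockout, against 78.4, 87.7, 91.0 and 91.4 CPM in wild type (-0.16 ± 0.10). Dlst, its E2 core, had a log2 fold change of 0.043 ± 0.11. Succinyl-CoA ligase pairs the alpha subunit Suclg1 with an ATP-specific (Sucla2) or GTP-specific (Suclg2) beta subunit. Suclg2 had 7.29, 11, 9.90 and 6.75 CPM in knockout replicates 1 to 4, against 6.91, 5.18, 5.91 and 4.99 CPM in wild-type replicates 1 to 4. Knockout replicate 4 lay just under wild-type replicate 1 and all other knockout libraries lay above the wild-type range. The log2 fold change of 0.60 ± 0.18 (edgeR adjusted p = 0.151) was 0.47 without knockout replicate 2. Sucla2 had 8.94, 12.0, 10.3 and 10.8 CPM in knockout, against 9.42, 7.53, 8.26 and 8.43 CPM in wild type. It overlapped only through knockout replicate 1 and wild-type replicate 1 (0.33 ± 0.12, edgeR adjusted p = 0.208). Suclg1 had a log2 fold change of 0.075 ± 0.14. Per length Suclg2 made up 32.7 ± 4.15% of both beta subunits in knockout and 28.7 ± 1.94% in wild type, with overlapping ranges.

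Succinate dehydrogenase, fumarase and malate dehydrogenase had no gene with an unadjusted p under 0.05. The 4 succinate dehydrogenase genes had log2 fold changes of 0.074 ± 0.10 (Sdha, the flavoprotein), -0.030 ± 0.12 (Sdhb, the iron-sulfur subunit), -0.13 ± 0.17 (Sdhc) and -0.15 ± 0.16 (Sdhd, like Sdhc a membrane anchor). Without knockout replicate 2 Sdhc had -0.28 and Sdhd -0.26. Fh1, fumarase, averaged 7.51 ± 0.332 CPM in knockout and 6.58 ± 1.97 CPM in wild type (0.19 ± 0.19). Mdh2, the mitochondrial malate dehydrogenase, had 29.3, 41.1, 33.9 and 37.8 CPM in knockout, against 37.7, 36.9, 47.7 and 43.4 CPM in wild type (-0.22 ± 0.12). Mdh1, the cytosolic enzyme of the malate-aspartate shuttle, averaged 27.4 ± 5.91 CPM in knockout and 23.8 ± 4.26 CPM in wild type. Its log2 fold change was 0.21 ± 0.17, and 0.067 without knockout replicate 2.

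Library by library, the median glycolysis gene, as log2 CPM centred on each gene's mean, stood at -0.083, -0.12, -0.11 and -0.12 in knockout replicates 1 to 4, against 0.030, 0.11, 0.12 and 0.31 in wild-type replicates 1 to 4. The cycle median was -0.035, 0.15, 0.0056 and 0.0060 in knockout, against 0.011, -0.20, 0.040 and -0.051 in wild type. The glycolysis median was thus lower in every knockout library, least so against wild-type replicate 1, while the cycle medians overlapped. Since the members were chosen with earlier results known, these medians carry no test. In knockout libraries the glycolysis median stayed between -0.12 and -0.083. Their acinar shares ran from 5.47 to 28.6% and their hormone shares from 9.02 to 16.7%. In wild-type libraries the glycolysis median ran from 0.030 to 0.31. Acinar shares there ran from 2.08 to 26.8% and hormone shares from 10.2 to 24.3%. Wild-type replicate 1 had the lowest of these medians and the highest acinar share. Wild-type replicate 4 had the highest median at an acinar share of 5.06%. Wild-type replicate 2, with the lowest acinar share, had a median of 0.11. Of the 12 beta-cell markers 11 were negative (median log2 fold change -0.44), and of the 35 acinar markers tested 34 were positive (median 0.52). Once the acinar share entered the fit as a covariate, the glycolysis median was -0.18 and that of the cycle 0.061; with this covariate and without wild-type replicate 1 they were -0.31 and 0.03. The part of hormone RNA was not tested with a covariate.

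**Figure D4:**
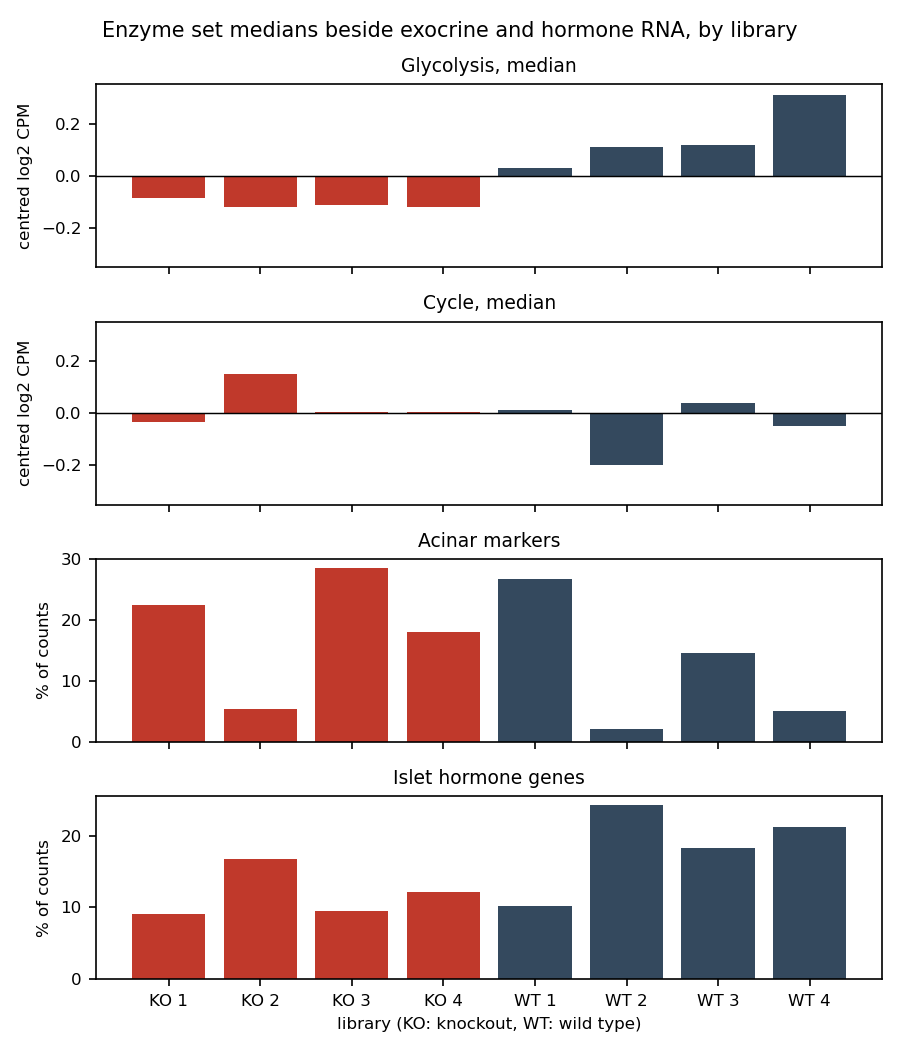
Median centred log2 CPM of the glycolysis and cycle genes (upper panels) and percent of counts on acinar markers and islet hormone genes (lower panels) in each of the 8 libraries, knockout in red and wild type in dark blue. The glycolysis bars are below 0 in the 4 knockout libraries and above 0 in the 4 wild-type libraries, with wild-type replicate 1 lowest at 0.030 and richest of the wild-type libraries in acinar RNA.

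Leaving out wild-type replicate 1 changed the calls. Without it 4 of 15 glycolysis members (26.7%) passed FDR 0.05 and were lower in knockout, against 6.08% of all genes: Eno2 (log2 fold change -0.66 ± 0.10, edgeR adjusted p = 0.00968), Pkm (-0.52 ± 0.10, adjusted p = 0.0171), Pfkm (-0.48 ± 0.11, adjusted p = 0.0258) and Pfkl (-0.44 ± 0.11, adjusted p = 0.0371). Of the 24 cycle members Suclg2 passed (0.69 ± 0.18, edgeR adjusted p = 0.0396), or 4.17%, against 3.39% of all genes higher. When the acinar share was fitted as well, 0 of 15 glycolysis and 0 of 24 cycle members passed in edgeR without that library. Of 13874 genes 136 passed there as lower in knockout and 132 as higher. The glycolysis median in that fit was -0.31, against -0.36 without the covariate. With all 8 libraries Pkm, Eno2 and Pfkm passed in DESeq2 (adjusted p = 0.0211, 0.0303 and 0.0328). Of the 9932 genes given an adjusted p there, 3.29% passed as lower in knockout. Hk2, Eno1 and Ldhb were given none. Pkm, Eno2 and Pfkm also passed in limma-voom with library weights (adjusted p = 0.0291, 0.0315 and 0.0380), where 3.75% of all genes passed as lower. Without both wild-type replicate 1 and knockout replicate 2 they passed again (edgeR adjusted p = 0.0184 for Pkm, 0.00945 for Eno2 and 0.0472 for Pfkm), against 5.1% of all genes lower.

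Other enzymes of the same routes are described from lists written with earlier results of these data known. Of 24 tested enzymes and transporters of glucose and pyruvate 13 were negative and 11 positive, with a median log2 fold change of -0.012. In edgeR 0 passed FDR 0.05. At an unadjusted p under 0.05, 2 were lower and 2 higher, where 10.3% of all genes were lower and 8.42% higher. Pfkfb3, a bifunctional enzyme that makes the phosphofructokinase activator fructose 2,6-bisphosphate, had 5.82, 6.72, 5.79 and 3.82 CPM in knockout replicates 1 to 4, against 3.20, 3.28, 2.97 and 2.75 CPM in wild-type replicates 1 to 4. The genotypes did not overlap (0.86 ± 0.18, edgeR adjusted p = 0.116). Its relative Pfkfb2 lay the other way, at 86.5, 87.0, 77.7 and 84.4 CPM in knockout, against 97.5, 104, 101 and 115 CPM in wild type, also without overlap (-0.31 ± 0.09, adjusted p = 0.151). G6pc3, a glucose-6-phosphatase, averaged 0.665 times its wild-type level (-0.59 ± 0.15, adjusted p = 0.143). These 3 were named for the smallest p-values of their list, so passing in other fits of the same libraries is no separate support. All 3 passed in edgeR without wild-type replicate 1 (adjusted p = 0.0263 for Pfkfb3, 0.0336 for Pfkfb2 and 0.0149 for G6pc3). There 6.08% of all genes passed as lower and 3.39% as higher. With all 8 libraries the 3 genes passed in DESeq2 (adjusted p = 0.00499, 0.0149 and 0.0303) and in limma-voom with library weights (adjusted p = 0.038, 0.0391 and 0.0315). Over all genes 327 passed as lower and 199 as higher in DESeq2, and 511 and 328 with library weights.

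Of 38 tested enzymes and carriers around the cycle 16 were negative and 22 positive, with a median of 0.058, and 0 passed FDR 0.05. At an unadjusted p under 0.05, 4 were lower and 6 higher, where 10.3% of all genes were lower and 8.42% higher. Mpc1, a subunit of the mitochondrial pyruvate carrier, had 3.82, 4.24, 4.59 and 4.92 CPM in knockout, against 4.04, 2.56, 2.14 and 2.02 CPM in wild type, where only wild-type replicate 1 reached the knockout range (0.71 ± 0.22, edgeR adjusted p = 0.166). Gls2, a glutaminase that feeds glutamate to the cycle, had 5, 5.84, 6.01 and 3.5 CPM in knockout, against 3.46, 0.783, 1.87 and 1.26 CPM in wild type without overlap, though knockout replicate 4 and wild-type replicate 1 were close (1.47 ± 0.41, adjusted p = 0.152). Mpc1, Gls2 and Slc25a1 were likewise named for the smallest p-values of their list, so the other fits below are no separate support. Without wild-type replicate 1 both Mpc1 and Gls2 passed in edgeR, Mpc1 at 0.96 ± 0.17 (adjusted p = 0.0125) and Gls2 at 1.95 ± 0.30 (adjusted p = 0.00968). There 3.39% of all genes passed as higher. With all 8 libraries Gls2 passed in DESeq2 (adjusted p = 0.01) and Mpc1 did not (adjusted p = 0.0636), and both passed in limma-voom with library weights (adjusted p = 0.0277 for Mpc1 and 0.0285 for Gls2). The citrate carrier Slc25a1 had a log2 fold change of -0.36 ± 0.12 and passed in the weighted limma-voom fit (adjusted p = 0.0476). Of 14 tested hypoxia response genes outside the enzyme sets 4 were negative and 10 positive, with a median of 0.13. Among them Vegfa was lower without overlap (-0.32 ± 0.11), Bnip3l had 0.31 ± 0.12 and Egln1 0.23 ± 0.09, none past FDR 0.05 in edgeR with all libraries. They too were named for the smallest p-values of their list. Without wild-type replicate 1 Vegfa (-0.40, edgeR adjusted p = 0.0406) and Bnip3l (0.41, edgeR adjusted p = 0.0268) passed, where 6.08% of all genes passed as lower and 3.39% as higher. Bnip3l also passed in limma-voom with library weights (adjusted p = 0.048). Ldha had 3.76, 13.4, 4.02 and 4.05 CPM in knockout, against 4.01, 1.69, 4.01 and 1.88 CPM in wild type, highest in the library with liver RNA; it was chosen after its values were seen.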

How the data were processed

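Per the labels' protocols, total RNA of hand-picked islets was extracted with TRIZOL, treated with DNase and made into SeqPlex libraries. Per the submitters' processing notes STAR 2.4.1, Partek and mm9 were used, but which step each served, the annotation and the strandedness are not stated. Deposited by the authors were estimated counts per gene (9.98 to 12.4% of values in a library not whole within 0.01, rounded here) and RPM values, which were those counts over 1 constant per library plus 0.0001. The RPM table served as an alternative only.

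Counts were fitted in edgeR 4.0.16 (R 4.3.3): TMM, filterByExpr by genotype, quasi-likelihood F-test (robust) of genotype, knockout over wild type, Benjamini-Hochberg over 13617 genes, FDR 0.05. The fit was tested on simulated counts with planted changes larger than those of most members, so that test does not cover effects of their size. CPM are counts over TMM-scaled library sizes, and SE come from the F statistic. Exon lengths came from GENCODE M21 (GRCm38), matched by symbol for 96.6% of genes, and promoters from RefSeq (GRCm38.p6), found for 37 members. No 2 libraries of a genotype were copies: their smallest chi-square per degree of freedom was 44.6. Precision is that of 4 mice per genotype; counting intervals cover counting error only.

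Members and lists were chosen with earlier results of these data known. Library values are given for members with unadjusted p under 0.05 or no overlap (otherwise the 6 of smallest p in a set), for isoform sets and for the 3 most abundant per kb. Up to 3 genes of smallest p are named per pathway list. A few others are given likewise. Normalization, filter, test (DESeq2 1.42.0, limma 3.58.1), covariates and left-out libraries were varied as alternatives. Chosen after seeing the data were the liver markers, Xist (limit 1000 counts) as a covariate, library sizes that omit Rn45s, Mir6236 and Lars2, and combinations of left-out libraries or covariates.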

Additional observations from a re-analysis of the deposited data

Results flagged for a closer look

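A library stood apart from the other 3 of its genotype in 4 of 128 groups of 4 examined by Dixon's test, where chance gives about 1 in 20. Another 3 (Ldha, Pklr and the liver markers) were chosen after their values were seen and are not in that count. Hk2 was at 2.18 CPM in knockout replicate 1, against at most 0.486 CPM in the other knockout libraries. Idh3g reached 45.2 CPM there, where the remaining knockout libraries had 37.2 to 37.8 CPM. Knockout replicate 2 was highest for Idh1 at 24.3 CPM (next 10.1) and for Aco1 at 16.3 CPM (next 11). It was also highest for Ldha at 13.4 CPM (next 4.05) and for Pklr, the pyruvate kinase of liver and red cells, at 15 CPM (next 7.18). The liver markers took 0.734% of counts in that library, against at most 0.00189% in the other knockout libraries.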

How the results depend on the processing

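Of the 39 members 27 kept the sign of their log2 fold change under all 27 alternatives (26 for Eno1, which the filter of 10 counts in all libraries removed). Under at least 1 alternative 5 members passed FDR 0.05. The matching share of all genes was not computed, and without wild-type replicate 1 alone 1313 of 13874 genes passed. Leaving out each library in turn gave 2 to 1313 genes past FDR 0.05 over all genes, 0 to 4 in glycolysis and 0 to 1 in the cycle; the upper counts come without wild-type replicate 1. The medians ranged from -0.36 to -0.14 in glycolysis and from 0.009 to 0.12 in the cycle. Over all genes 48 passed without a composition factor, 1 with at least 10 counts in all libraries, 526 in DESeq2, 839 in limma-voom with library weights, 51 and 58 in limma-trend with pseudocounts of 1 and 0.1, 1296 without wild-type replicate 1 and knockout replicate 2, and 268 with an acinar covariate and no wild-type replicate 1. In glycolysis 3 passed in DESeq2, 3 with library weights and 3 without those 2 libraries, but 0 with an acinar covariate and no wild-type replicate 1. The glycolysis median was -0.43 without a composition factor, which moved the median of all genes to -0.11, then -0.35 and -0.41 in limma-trend with pseudocounts of 1 and 0.1, -0.18 with the acinar covariate and -0.36 without those 2 libraries. The cycle median was -0.068 and -0.076 in limma-trend with pseudocounts of 1 and 0.1, where the median of all genes was -0.088 and -0.13.

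Signs changed in 12 members, none of them called. Without a composition factor the values were -0.023 (Tpi1), -0.011 (Pdhb), -0.074 (Idh3b), -0.045 (Dlst), -0.0015 (Suclg1) and -0.012 (Sdha). With library weights they were -0.021 (Tpi1), 0.00089 (Idh3a), -0.01 (Idh3b) and -0.024 (Dlst). In limma-trend with pseudocounts of 1 and 0.1 they were -0.10 and -0.11 (Tpi1), -0.063 and -0.072 (Pdhb), -0.095 and -0.12 (Aco1), -0.10 and -0.12 (Idh3b), -0.10 and -0.11 (Dlst), -0.043 and -0.051 (Suclg1), and -0.074 and -0.079 (Sdha). With the acinar covariate they were 0.066 (Pgam1) and -0.0069 (Suclg1), and with it but no wild-type replicate 1 they were 0.051 (Pgam1), 0.022 (Idh3a), -0.021 (Idh3b), -0.016 (Suclg1) and -0.076 (Fh1). Without wild-type replicate 1 and knockout replicate 2 they were -0.047 (Tpi1), -0.054 (Aco1), 0.04 (Idh3a), -0.021 (Idh3b) and -0.044 (Dlst). With Xist as a covariate Sdhb was 0.022. Leaving out each library gave -0.085 to 1.18 (Hk2), -0.077 to 0.088 (Tpi1), -0.11 to 0.081 (Pgam1), -0.14 to 0.12 (Aco1), -0.068 to 0.027 (Idh3a), -0.06 to 0.12 (Idh3b), -0.024 to 0.1 (Dlst), -0.046 to 0.14 (Suclg1), -0.0022 to 0.13 (Sdha) and -0.1 to 0.021 (Sdhb). Where not stated, the cause was not tested.

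Same-numbered libraries correlated by 0.04, 0.21, 0.16 and 0.15 in their deviations from the genotype means. Of the 8 libraries 5 correlated best with their own number. These values do not settle whether the numbers mark pairs. The labels used here name no pairs, so the main fit took none. With the replicate number as a block 2 genes passed, 0 of them members, and the medians were -0.26 and 0.071. The low-count members Hk2 and Eno1 are the least precise.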

Other observations

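Markers of other cell types showed no common direction, and none of their genes passed FDR 0.05 in edgeR. Endothelial markers were negative in 9 of 10 genes tested (median log2 fold change -0.19) and macrophage and leukocyte markers in 9 of 12 (median -0.087). Stellate and fibroblast markers were positive in 6 of 9 (median 0.64), alpha-cell markers in 6 of 7 (median 0.18), delta and PP cell markers in 5 of 5 (median 0.40) and duct markers in 6 of 11 (median 0.00093). Of the 12 liver markers 4 were tested and all 4 were positive (median 6.5). Their value rests on knockout replicate 2, where the liver markers took 0.734% of counts, against at most 0.00189% in any other library. Of these lists the endothelial markers took 0.0115 to 0.0238% of counts in knockout and 0.0131 to 0.0325% in wild-type libraries. The stellate and fibroblast markers took 0.0112 to 0.0365% in knockout and 0.0137 to 0.0255% in wild type. Their part in the enzyme results was not tested.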
